A study of Mus musculus with 12 samples.

Results

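Genes that set or mark the cell types of the mammary gland were followed through a mouse breast cancer cell line and 3 drug-resistant derivatives of it. The genes were taken by symbol: the transcription regulators Elf5, Gata3, Foxa1, Trp63 and Cited1, the receptors Esr1, Pgr, Prlr and Kit, and the surface glycoprotein Cd24a. Each symbol matched 1 row, so 10 of the 55573 genes in the deposited tables are described, and all 10 passed the filter on low counts.

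The mammary duct has an outer basal layer and an inner luminal layer, and luminal cells are divided into hormone-sensing cells and progenitors of the milk-secreting alveoli. The transcription factor p63, encoded by Trp63, maintains basal cells. GATA3, FOXA1 and the estrogen receptor act in hormone-sensing luminal cells, while ELF5 and the prolactin receptor drive alveolar cells and KIT marks luminal progenitors.

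The untreated parental line is PB3-Parental, called Control here. The derivatives are PB3-ERI-R, PB3-PAC-R and PB3-VIN-R, shortened to ERI-R, PAC-R and VIN-R, which were selected with eribulin, paclitaxel and vinorelbine respectively. Eribulin and vinorelbine block microtubule growth and paclitaxel stabilises microtubules. Concentrations of 300, 500 and 800 nM are given for each drug, without saying which one a library had seen. How many clones a resistant line comprises is not given in the sources used here. All 4 lines carry the label Er-/Pr-/Her2-, that is, negative for estrogen receptor, progesterone receptor and HER2, and each has 3 poly(A) RNA libraries. Because the labels do not say that replicates were separate cultures, p-values here reflect only how these libraries vary, which may be technical.

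Libraries held between 11140986 and 13454362 counts. Levels are in CPM, counts relative to the scaled library total, and 3 counts amounted to between 0.217 and 0.315 CPM. In 8 libraries the leukocyte antigen Ptprc lay between 59.0 and 383 CPM and the lysozyme Lyz2 between 182 and 1399 CPM. In the remaining 4 (ERI-R 3, PAC-R 3, VIN-R 3 and Control 1) Ptprc reached at most 0.0722 CPM and Lyz2 was at 0. The 12 leukocyte markers summed to between 583 and 3938 CPM in the 8 libraries and to between 1.16 and 3.57 CPM in the 4. Ribosomal protein genes took 15.3% of the counts of ERI-R 3 and 3.56% to 8.19% elsewhere, and ERI-R 3 had the shortest mean fragments (180.5 bases against 187 to 206). Results that rest on these libraries are given with and without them. In RNA from whole cultures, fewer cells expressing a gene and less RNA per cell cannot be told apart.

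ERI-R differed from the parental line in 8 of the 10 genes. Elf5, Foxa1, Trp63, Cited1, Pgr, Prlr and Kit were higher in ERI-R and Gata3 was lower, while Esr1 and Cd24a were not called. The test was edgeR's quasi-likelihood test with Benjamini-Hochberg adjustment over 14226 genes, with a threshold of 0.05. Of all genes tested, 9.51% were called higher and 9.69% lower in this comparison. Elf5 and Cited1 passed the filter through the ERI-R libraries alone. Pgr and Kit reached its level in ERI-R and 1 other library, too few without ERI-R. All of these could be tested only because they were high in ERI-R. The count of 8 and the median therefore describe the 10 genes and support nothing further. The median log2 fold change was 5.57 over the 10 genes and -0.00 over all genes tested.

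**Figure D1:**
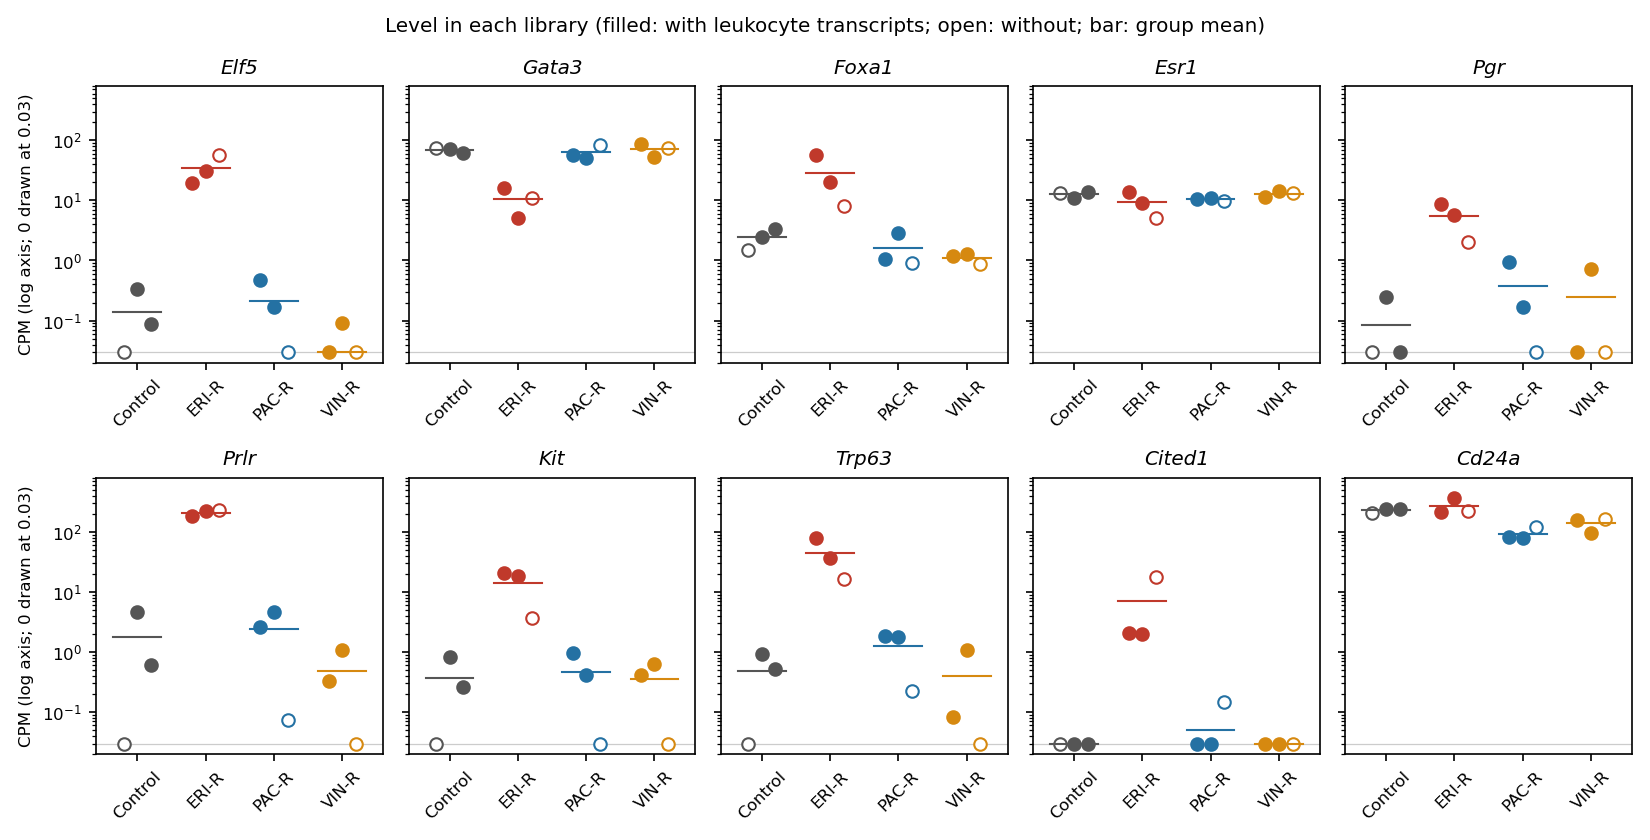
Level of each gene in each library, in CPM on a log axis with 0 drawn at 0.03. Points are libraries, filled with and open without leukocyte transcripts, and bars are group means (n = 3). The 7 risen genes lie higher and Gata3 lower in the 3 ERI-R libraries than in every other library, and Esr1 lies between 5.04 and 14.3 CPM throughout. The share of all genes that separate in this way was not counted.

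Stretches before RefSeq start sites of these genes are printed because 7 of the genes rose together. Another reason is that the series concerns the mesenchymal-epithelial transition, in which the repressors of the ZEB and SNAIL families act through a short E-box. RefSeq promoter windows of the GRCm38.p6 build matched 8 of the 10 genes, with 15 start sites, and Trp63 and Cd24a had none in the table. The 250 bases before each start site were searched for the E-box CACCTG on both strands, where the other strand reads CAGGTG. The windows below are written in the direction of transcription and end just before the start site, with E-boxes in capitals. The Elf5 window is chr2:103411848-103412097 (plus strand), the Foxa1 window chr12:57546112-57546361 (minus strand), the Pgr window chr9:8899583-8899832 (plus strand) and the Prlr window chr15:10223656-10223905 (plus strand). The Gata3 window, chr2:9878601-9878850 (minus strand), is printed because that gene was lower in ERI-R, and it holds no E-box. The windows of Kit and Cited1, which rose, hold none either and are not printed. By the gene spans given below, the Pgr window lies upstream of its gene. The printed windows of Elf5, Foxa1, Prlr and Gata3 lie within the gene, before a start site inside it. The Prlr window just upstream of that gene, chr15:10176988-10177237, holds no E-box.
Elf5: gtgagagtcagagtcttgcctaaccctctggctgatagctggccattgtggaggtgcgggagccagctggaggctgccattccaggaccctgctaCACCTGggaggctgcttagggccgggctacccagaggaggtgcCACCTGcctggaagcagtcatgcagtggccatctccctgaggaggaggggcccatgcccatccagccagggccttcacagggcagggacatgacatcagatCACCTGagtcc
Foxa1: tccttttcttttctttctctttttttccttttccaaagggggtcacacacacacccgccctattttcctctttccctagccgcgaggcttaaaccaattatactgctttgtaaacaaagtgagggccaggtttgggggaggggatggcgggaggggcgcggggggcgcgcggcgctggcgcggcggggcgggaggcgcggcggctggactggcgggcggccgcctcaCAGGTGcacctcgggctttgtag
Pgr: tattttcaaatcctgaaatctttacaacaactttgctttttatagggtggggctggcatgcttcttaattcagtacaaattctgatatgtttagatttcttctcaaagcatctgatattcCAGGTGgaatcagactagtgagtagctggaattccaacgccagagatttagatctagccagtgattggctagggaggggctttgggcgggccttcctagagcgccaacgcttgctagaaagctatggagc
Prlr: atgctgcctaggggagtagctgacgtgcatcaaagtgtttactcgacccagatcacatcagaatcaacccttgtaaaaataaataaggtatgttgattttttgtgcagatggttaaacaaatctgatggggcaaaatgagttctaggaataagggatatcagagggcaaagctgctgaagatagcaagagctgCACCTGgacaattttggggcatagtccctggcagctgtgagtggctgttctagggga
Gata3: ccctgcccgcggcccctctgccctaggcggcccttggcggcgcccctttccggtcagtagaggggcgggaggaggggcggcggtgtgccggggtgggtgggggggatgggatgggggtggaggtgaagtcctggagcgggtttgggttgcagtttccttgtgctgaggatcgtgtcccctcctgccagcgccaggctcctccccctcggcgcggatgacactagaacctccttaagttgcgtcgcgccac

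The Elf5 window held 3 E-boxes, beginning 155, 112 and 11 bases before the start site. Foxa1 had 1 at 23 bases, Pgr 1 at 130 bases and Prlr 1 at 57 bases. No E-box was found in the windows of Gata3, Esr1, Kit or Cited1, nor in the other Elf5 and Prlr windows. The motif occurs in 17.2% of all 32851 windows and in at least 1 window of 19.4% of 27025 genes, and 3 or more matches in 0.247% of windows. Other motifs were searched on both strands. The forkhead motif GTAAACA (3.17% of windows) was present at Foxa1 and Prlr, and the STAT5 motif TTCNNNGAA (7.02%) at Esr1 and Prlr. The AP-1 motif TGANTCA (6.75%) was found at Prlr and the ETS core CGGAAG (13.6%) at Cited1, while the GATA motif AGATAA (9.99%) was in none of the 15 windows. No match overlapped an E-box. These matches describe letters in the windows and are not evidence of binding.

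Elf5, an ETS-family factor of alveolar progenitors, lies on chromosome 2 at 103411688 to 103450989 (GRCm38, plus strand). Its level was 19.3, 30.4 and 55.8 CPM in ERI-R 1, 2 and 3, and 0, 0.335 and 0.0873 CPM in Control 1, 2 and 3. It stood at 0.479, 0.168 and 0 CPM in PAC-R and at 0, 0.0913 and 0 CPM in VIN-R. The lowest ERI-R library was far above the highest library of any other line. The ERI-R mean was 35.2 ± 18.7 CPM (SD, n = 3) and the Control mean 0.141 ± 0.174 CPM (SD, n = 3). The log2 fold change was 7.90 (SE 1.20, adjusted p = 0.00143, edgeR quasi-likelihood with Benjamini-Hochberg adjustment). Elf5 passed the filter through ERI-R alone. With no filter the value was 7.87 (adjusted p = 4.1e-04 in the same test), and without Control 2 it was 9.42. Against VIN-R, with 1 count over its 3 libraries against 1185 in ERI-R, the CPM ratio was 1207 (95% counting interval 216 to 47716). Elf5 was at its highest in ERI-R 3, the ERI-R library without leukocyte transcripts.

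Foxa1, a forkhead pioneer factor that opens chromatin for the estrogen receptor, lies on chromosome 12 at 57540628 to 57546916 (minus strand). It stood at 57.6, 20.3 and 8.19 CPM in ERI-R 1 to 3 and at 1.52, 2.43 and 3.32 CPM in Control 1 to 3. PAC-R had 1.05, 2.86 and 0.896 CPM and VIN-R 1.17, 1.28 and 0.885 CPM. The ERI-R libraries were above the other 9, but differed among themselves by more than any other group did. The log2 fold change against Control was 3.57 (SE 0.730, adjusted p = 0.00616, edgeR quasi-likelihood with Benjamini-Hochberg adjustment). Leaving out ERI-R 1 gave 2.58 and leaving out ERI-R 3 gave 4.14, with the call kept in both.

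Trp63 lies on chromosome 16 at 25683763 to 25892102 (plus strand). Its level was 78.1, 37.0 and 16.3 CPM in ERI-R 1 to 3, against 0, 0.921 and 0.524 CPM in Control. It reached 1.82, 1.77 and 0.224 CPM in PAC-R and 0.0836, 1.10 and 0 CPM in VIN-R. The groups did not overlap, and the lowest ERI-R library was again ERI-R 3. The log2 fold change against Control was 6.50 (SE 1.48, adjusted p = 0.0105, edgeR quasi-likelihood with Benjamini-Hochberg adjustment). Without Control 3 the gene was not called (6.56, adjusted p = 0.0506 in the same test). Leaving out Control 2 gave 7.38, and leaving out ERI-R 1 gave 5.81.

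Cited1, a coactivator that binds the estrogen receptor in luminal cells, lies on chromosome X at 102247381 to 102252181 (minus strand). It had 27, 26 and 166 counts in ERI-R 1 to 3, which are 2.05, 1.98 and 17.4 CPM. Over the 3 libraries of each other group it had 0 counts in Control, 2 in PAC-R, both in PAC-R 3, and 0 in VIN-R. Cited1 was therefore detected in ERI-R libraries and 1 PAC-R library, and its highest level was in ERI-R 3. Against a floor of 3 counts over a group, Cited1 was at least 75.9-fold higher in ERI-R than in Control and at least 74.4-fold higher than in VIN-R. ERI-R 3 carried most of this: without it the bounds were 25.03-fold and 24.5-fold. Cited1 passed the filter through ERI-R alone. With no filter, the edgeR quasi-likelihood test with Benjamini-Hochberg adjustment gave adjusted p = 0.00521 against Control and 0.00513 against VIN-R.

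Gata3, a zinc-finger factor needed to keep luminal cells differentiated, lies on chromosome 2 at 9857078 to 9890034 (minus strand). It was the 1 gene of the 10 that was lower in ERI-R, at 16, 5.03 and 11 CPM in ERI-R 1 to 3 against 74.0, 72.6 and 62.4 CPM in Control. PAC-R had 57.6, 49.9 and 82.5 CPM and VIN-R 85.9, 51.8 and 74.9 CPM. Every ERI-R library lay under every other library, while the libraries of Control, PAC-R and VIN-R overlapped. The log2 fold change against Control was -2.70 (SE 0.417, adjusted p = 0.00155, edgeR quasi-likelihood with Benjamini-Hochberg adjustment), and it lay between -3.10 and -2.33 with any 1 library left out. The authors' counting is not stated to use strand, so reads of Gata3 and of the antisense gene Gm13256 (2 counts over all libraries) cannot be told apart. The overlapping genes 4930412O13Rik and 9230102O04Rik held 47 and 18 counts over the 9 libraries outside ERI-R.

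Prlr, the receptor for prolactin, lies on chromosome 15 at 10177238 to 10349180 (plus strand). It was the most even of the risen genes, at 180.2, 218 and 229 CPM in ERI-R 1 to 3. Control had 0, 4.69 and 0.611 CPM, PAC-R 2.59, 4.63 and 0.0746 CPM, and VIN-R 0.334, 1.10 and 0 CPM. The 3 ERI-R libraries thus spanned a narrow range far above the rest, whereas the low levels elsewhere ranged widely. The log2 fold change against Control was 6.89 (SE 1.72, adjusted p = 0.0170, edgeR quasi-likelihood with Benjamini-Hochberg adjustment). The call was lost without Control 3 (6.47, adjusted p = 0.0798), and without Control 2 the value was 9.42. Gm21973, which overlaps Prlr, had 0 counts.

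Kit, the receptor tyrosine kinase for stem cell factor, lies on chromosome 5 at 75574916 to 75656722 (plus strand). ERI-R 1 to 3 had 20.7, 18.1 and 3.67 CPM, and Control 0, 0.838 and 0.262 CPM. PAC-R had 0.958, 0.421 and 0 CPM and VIN-R 0.418, 0.639 and 0 CPM. The groups did not overlap, and ERI-R 3 was well below the other ERI-R libraries. The log2 fold change against Control was 5.25 (SE 1.48, adjusted p = 0.0298, edgeR quasi-likelihood with Benjamini-Hochberg adjustment). Kit could be tested only because it was high in ERI-R, as 1 other library reached the filter level. With no filter the value for Kit was 5.31 (adjusted p = 0.0381 in the same test). It was not called without ERI-R 1 (4.91), Control 1 (4.78), ERI-R 2 (5.10) or Control 3 (5.06), with adjusted p between 0.0558 and 0.118 in the same test. Leaving out Control 2 gave 6.71 and leaving out ERI-R 3 gave 5.85, both called. Mast cells and melanocytes also carry KIT. Of 7 mast cell markers, Mcpt4, Tpsb2 and Fcer1a were at 0 in all 12 libraries. Cpa3, Ms4a2 and Cma1 were at 0 in Control but not in ERI-R or VIN-R, and Cpa3 was at 0 in PAC-R. More than 3 counts over the group were found for 2 of the 7 in ERI-R and for 1 in each other group. The list's lowest sum was 1.05 CPM in ERI-R and 0.144 to 0.149 CPM in the other groups. Its highest sum was 5.85 CPM in ERI-R and 8.88 to 25.0 CPM in the others. In Control the sums came from the 1 marker of the list that was not at 0. Of 5 melanocyte markers, Tyr and Dct were at 0 and the list summed to at most 0.914 CPM in any library. Here too, 2 had more than 3 counts in ERI-R and 1 in each other group. What part such cells had in the Kit level was not tested.

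Pgr, the progesterone receptor and a classical estrogen target, lies on chromosome 9 at 8899833 to 8968611 (plus strand). It had 8.59, 5.79 and 1.99 CPM in ERI-R 1 to 3, and 0, 0.251 and 0 CPM in Control. PAC-R had 0.958, 0.168 and 0 CPM and VIN-R 0, 0.730 and 0 CPM. The ERI-R libraries lay above all others, with the smallest gap between ERI-R 3 and PAC-R 1. Over 3 libraries each, 208 counts in ERI-R stood against 3 in Control, a CPM ratio of 72.1 (95% counting interval 24.3 to 352). Pgr could be tested only because it was high in ERI-R, as 1 other library reached the filter level. With no filter its log2 fold change was 5.93 (adjusted p = 0.0425, edgeR quasi-likelihood with Benjamini-Hochberg adjustment). With the filter, Pgr was called higher than in Control (log2 fold change 5.90, SE 1.74, adjusted p = 0.0369, edgeR quasi-likelihood with Benjamini-Hochberg adjustment). That call was the least stable of the 8 when single libraries were left out: removing ERI-R 1 (5.44), Control 1 (5.43), ERI-R 2 (5.90), Control 2 (Control then had 0 counts), PAC-R 2 (5.88) or Control 3 (5.38) ended it, with adjusted p between 0.0540 and 0.133 in the same test.

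Esr1, the estrogen receptor alpha gene, lies on chromosome 10 at 4611593 to 5005614 (plus strand). Its level was 13.9, 9.22 and 5.04 CPM in ERI-R 1 to 3 and 13.5, 11.1 and 13.5 CPM in Control. PAC-R had 10.5, 11.1 and 9.85 CPM and VIN-R 11.2, 14.3 and 13.1 CPM. The ERI-R libraries overlapped each other group. No comparison called Esr1, and its log2 fold change in ERI-R against Control was -0.44 (SE 0.344, adjusted p = 0.449, edgeR quasi-likelihood with Benjamini-Hochberg adjustment). The difference came to 0.00 without ERI-R 3 and to -0.81 without ERI-R 1. Esr1 transcripts were thus measured in every library, although all are labelled receptor-negative. So was Erbb2, which encodes HER2, at between 16.8 and 52.7 CPM. Pgr was measured in each ERI-R library. Outside ERI-R it had 23 counts over the 6 libraries with leukocyte transcripts and 0 over the 3 without. Transcript levels do not measure the receptor proteins.

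Cd24a, which encodes a small glycoprotein anchored in the membrane and abundant on luminal cells, lies on chromosome 10 at 43578284 to 43584265 (plus strand). It stood at 217, 365 and 219 CPM in ERI-R 1 to 3 and at 205, 235 and 240.2 CPM in Control. PAC-R had 81.8, 79.2 and 119.7 CPM and VIN-R 156, 96.9 and 165 CPM. ERI-R overlapped Control, and the libraries of PAC-R and VIN-R lay below those of both. ERI-R against Control gave 0.23 (SE 0.312, adjusted p = 0.685), and ERI-R against PAC-R gave 1.51 (SE 0.319, adjusted p = 0.00747, both from edgeR's quasi-likelihood test with Benjamini-Hochberg adjustment). With only the ERI-R and PAC-R libraries in the fit the latter was 1.59 and no longer called (adjusted p = 0.0635). B cells and neutrophils also carry CD24. The 8 markers of these cells summed to between 14.8 and 212 CPM in the 8 libraries with leukocyte transcripts and to between 4.77 and 9.55 CPM in the other 4. Cd24a lay between 79.2 and 365 CPM in those 8 and between 119.7 and 219 CPM in the 4, and a part of leukocytes in its level was not tested.

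ERI-R was next set against the other resistant lines, which asks whether the pattern was shared by lines selected with other microtubule drugs. These comparisons reuse the ERI-R libraries of the comparison with Control. Against PAC-R, 7 genes were higher (9.19% of all genes tested) and 1 lower (9.55%), with Cd24a called and Pgr not. Against VIN-R, 6 were higher (9.55%) and 1 lower (9.74%), with neither Cd24a nor Pgr called. DESeq2 called both against VIN-R (Pgr 4.55, adjusted p = 0.0287; Cd24a 0.98, adjusted p = 0.0219), and edgeR with DESeq2 size factors called Cd24a (1.00, adjusted p = 0.0463). Elf5 was higher than in PAC-R by 7.35 (SE 1.16) on the log2 scale and than in VIN-R by 9.85 (SE 1.37). Foxa1 was higher by 4.15 (SE 0.753) and 4.68 (SE 0.775) respectively. Gata3 had log2 fold changes of -2.57 and -2.73 and was called lower in both. Prlr had 6.43 against PAC-R and 8.79 against VIN-R, Trp63 had 5.11 and 6.82, and Kit had 4.95 and 5.32. Cited1 had 2 counts in PAC-R, a CPM ratio of 109 (95% counting interval 29.9 to 907). Pgr had 3.88 against PAC-R (adjusted p = 0.110) and 4.49 against VIN-R (adjusted p = 0.0740, edgeR quasi-likelihood with Benjamini-Hochberg adjustment), with no overlap between the groups in either. Single libraries also moved values without ending a call. Elf5 against PAC-R was 8.58 without PAC-R 1 and 6.73 without PAC-R 3. VIN-R had 0 Elf5 counts without VIN-R 2. Foxa1 was 3.15 against PAC-R and 3.68 against VIN-R without ERI-R 1, and 4.86 against PAC-R without PAC-R 2. Prlr was 5.84 against PAC-R without PAC-R 3, and against VIN-R it was 10.2 without VIN-R 2 and 8.17 without VIN-R 3. Trp63 against VIN-R was 9.77 without VIN-R 2, 6.20 without VIN-R 3 and 6.11 without ERI-R 1. Without ERI-R 3, Cited1 was 5.10 and Kit 5.57 against PAC-R, and Kit was 5.91 against VIN-R.

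**Figure D2:**
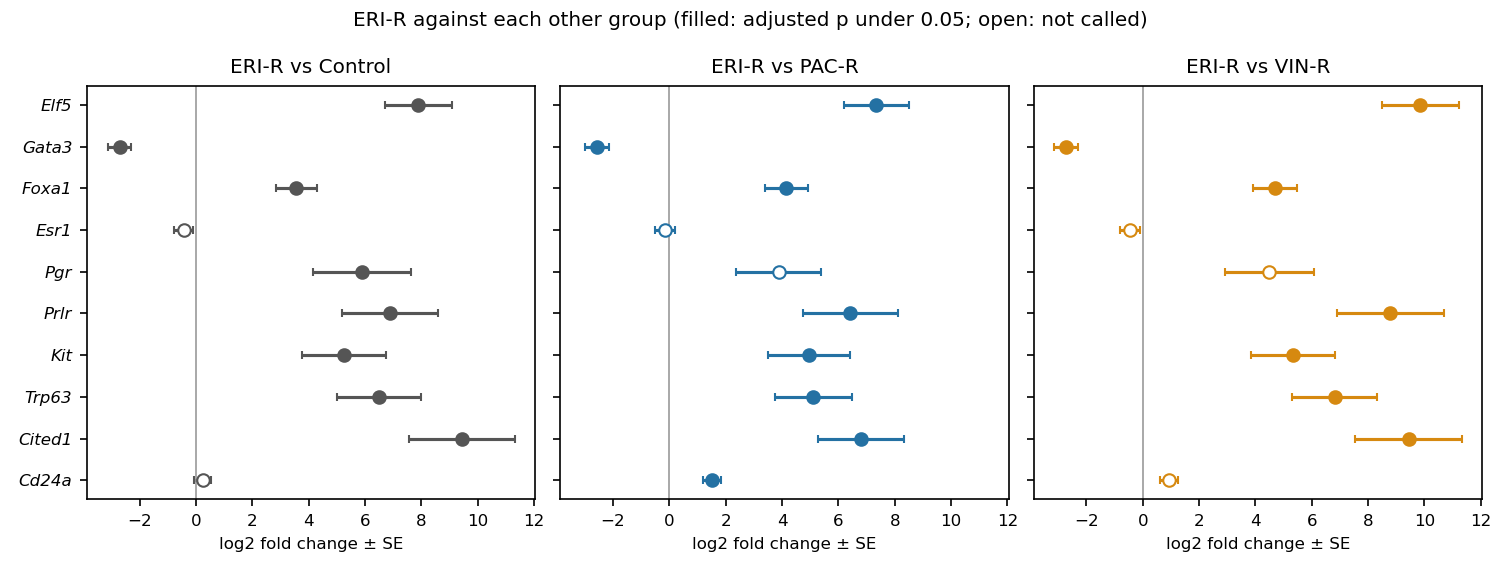
Log2 fold change of each gene in ERI-R against Control, PAC-R and VIN-R, with bars of 1 SE from the edgeR quasi-likelihood fit (n = 3 libraries a group). Filled points have an adjusted p under 0.05, and the Cited1 values against Control and VIN-R, where it had 0 counts, depend on the prior count of the fit. Gata3 lies near -2.70 in the first panel and similarly in the others, and Esr1 lies near 0.

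Several of the calls against PAC-R and VIN-R were lost when 1 library was left out. A lost call does not by itself show that the difference came from that library. Kit against PAC-R was 4.95 with all libraries and 4.94 without Control 3 or VIN-R 1, which lie outside that comparison. Against PAC-R, Kit was not called without Control 3, ERI-R 1, ERI-R 2, PAC-R 1, PAC-R 2, PAC-R 3 or VIN-R 1 (4.34 to 6.03) or with only those 2 groups in the fit (5.07). Trp63 was not called without ERI-R 1 (4.41), PAC-R 1 (5.45), PAC-R 2 (5.42) or PAC-R 3 (4.59), nor Cited1 without PAC-R 1 (6.33), PAC-R 2 (6.28) or PAC-R 3 (PAC-R then had 0 counts). Prlr was not called without PAC-R 1 (6.46) or PAC-R 2 (7.30), nor without the filter on low counts (6.42). Against VIN-R, Kit was not called without ERI-R 1 (4.95), ERI-R 2 (5.13), VIN-R 1 (5.47), VIN-R 2 (6.05) or VIN-R 3 (4.71). Pgr became called against VIN-R without ERI-R 3 (5.04) or VIN-R 2 (VIN-R then had 0 counts), and Cd24a without ERI-R 3 (1.19). The calls of Elf5, Foxa1 and Gata3 in the 3 comparisons with ERI-R were kept with any 1 of the 12 libraries left out.

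The 8 genes called against Control were also called when the leukocyte marker score was a covariate and when only the 8 libraries with leukocyte transcripts were used. With the score, Prlr had 7.84 against Control, 7.47 against PAC-R and 9.66 against VIN-R, and Kit had 5.68 against PAC-R. In the 8 libraries Elf5 had 6.90, 6.36 and 8.94 in the same order. Against PAC-R and VIN-R both settings called 9 of the 10 genes, which included each gene called with all 12 libraries. Both settings also called more of all genes. Against Control, PAC-R and VIN-R the score called 4498, 4132 and 4286 of 14226 genes. The 8 libraries gave 3264, 3287 and 3448 of 14388, and the main fit gave 2732, 2667 and 2744 of 14226. Pgr was added against PAC-R (4.65 with the score, 3.81 in the 8 libraries), and Pgr (5.13 and 4.43) and Cd24a (0.95 and 1.3) against VIN-R. The 4 libraries without leukocyte transcripts hold 1 library a group and so give values without a test. Among them, ERI-R 3 had 532 counts of Elf5 against 0 in each other library, 2178 of Prlr against at most 1, and 155 of Trp63 against at most 3.

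PAC-R and VIN-R were compared with Control to ask whether selection with the other drugs went with changes in these genes. None of the 10 was called in either comparison or between VIN-R and PAC-R, and the share of all genes called was 0% in each. At an unadjusted p under 0.05, edgeR's quasi-likelihood test gave 245 genes for PAC-R against Control, 381 for VIN-R against Control and 156 for VIN-R against PAC-R. DESeq2 called 22, 34 and 3 genes, none of them among the 10. Among the 4 genes measured at or above the filter's 0.839 CPM in all 9 libraries, Cd24a differed most in PAC-R and Foxa1 in VIN-R. The Cd24a log2 fold change was -1.28 in PAC-R (SE 0.317, unadjusted p = 0.00212, adjusted p = 1) and -0.70 in VIN-R (SE 0.314, unadjusted p = 0.0473, adjusted p = 1), from the edgeR quasi-likelihood test with Benjamini-Hochberg adjustment. In both lines each library lay below each Control library. Of the 10 genes, 2 separated from Control in each line: Cd24a and Esr1 in PAC-R, and Cd24a and Foxa1 in VIN-R. The share of all genes that separate in this way was not counted. Gata3 had -0.14 in PAC-R and 0.02 in VIN-R, Esr1 -0.28 and 0.02, and Foxa1 -0.59 and -1.12, with adjusted p = 1 throughout (edgeR quasi-likelihood, Benjamini-Hochberg). Foxa1 in VIN-R, at 0.885 to 1.28 CPM, lay just below the lowest Control library.

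The other 6 genes were so low outside ERI-R that they are given as counts. Elf5 and Cited1 passed the filter through ERI-R alone, and Pgr and Kit reached the filter level in 1 of the 9 other libraries, Prlr and Trp63 in 4. Elf5, Pgr, Prlr, Kit and Trp63 were at or near 0 in the libraries without leukocyte transcripts. Together they had 0 counts in Control 1, 4 in PAC-R 3 and 0 in VIN-R 3, and between 10 and 85 counts in the 6 libraries with leukocyte transcripts. Prlr made up 161 of the 307 counts in these 6, with 56 in Control 2, 55 in PAC-R 2 and 27 in PAC-R 1. Trp63 had 70 counts in the 6 against 3 in the other 3, Kit 40 against 0, Pgr 23 against 0 and Elf5 13 against 0. Cited1 did not share this division, with 0 counts in the 6 and 2 in PAC-R 3. Foxa1, expressed in all 9, had 2.04 CPM over the 6 and 1.10 CPM over the 3, and Esr1 12 and 12.2 CPM. In ERI-R the same 5 genes summed to 4036, 4057 and 2919 counts, so the low levels elsewhere are small beside them. What part leukocytes or other cells had in these low counts was not tested.

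**Figure D3:**
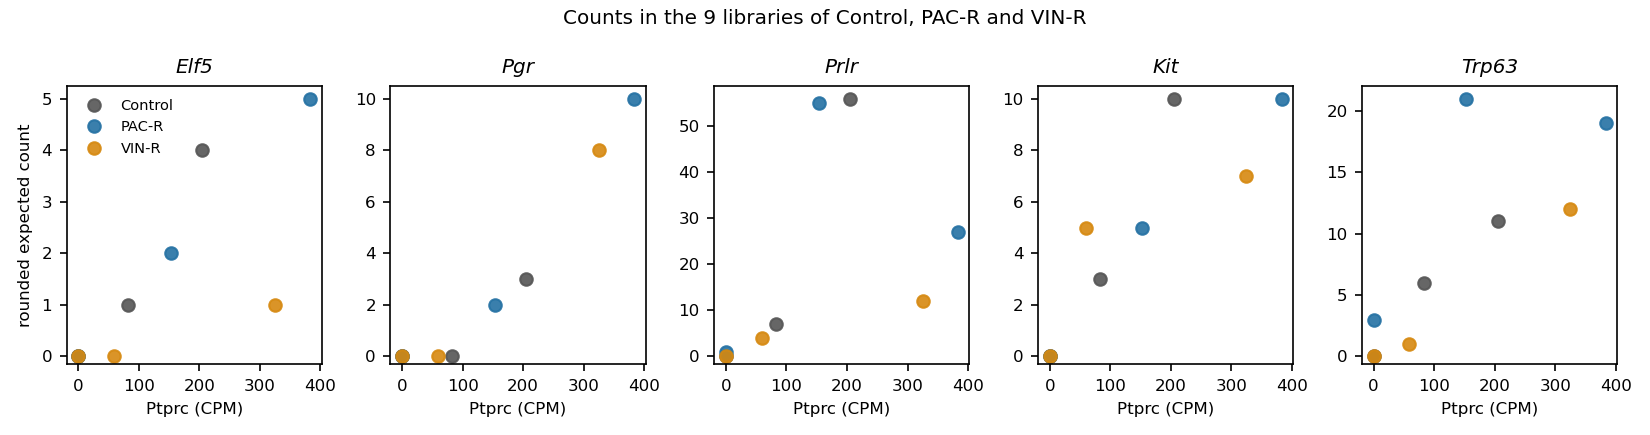
Rounded counts of Elf5, Pgr, Prlr, Kit and Trp63 against the Ptprc level (CPM) in the 9 libraries of Control, PAC-R and VIN-R; each point is a library. The 3 libraries with Ptprc near 0 have at most 3 counts of any of these genes, and the highest count is 56, of Prlr in Control 2.

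The ERI-R libraries also differed among themselves. Foxa1, Trp63, Kit, Pgr and Esr1 were lowest in ERI-R 3, at 8.19, 16.3, 3.67, 1.99 and 5.04 CPM. Elf5, Cited1 and Prlr were highest there, at 55.8, 17.4 and 229 CPM, with Prlr close to its level in ERI-R 2. Gata3 and Cd24a were neither highest nor lowest there. With 1 library of this kind in the group, no test was possible. The absence of leukocyte transcripts and the high ribosomal protein share of ERI-R 3 move with these levels, and their part was not tested.

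Levels were compared between genes per transcript length, in TPM, a share of transcripts. In ERI-R the order of the mean TPM was Cd24a (253 ± 141), Prlr (39.8 ± 10.03), Elf5 (33.7 ± 10.1), Trp63 (18.1 ± 15.7), Foxa1 (17.2 ± 18.4), Cited1 (9.85 ± 8.20), Kit (6.02 ± 4.39), Gata3 (5.39 ± 4.32), Esr1 (2.67 ± 1.94) and Pgr (1.53 ± 1.28; SD, n = 3). Cd24a was above Prlr in each library, while each other pair of neighbours in this order overlapped. In Control, Cd24a (223 ± 15.9), Gata3 (40.2 ± 5.08), Esr1 (3.38 ± 0.575) and Foxa1 (1.28 ± 0.478) did not overlap, and the remaining 6 genes reached at most 0.92 TPM in any library. Gata3 was thus the second most abundant of the 10 in Control and the eighth in ERI-R. In PAC-R the TPM order began with Cd24a (80.9 ± 13.8), Gata3 (30.1 ± 5.31) and Esr1 (2.69 ± 0.332), and in VIN-R with Cd24a (123 ± 34.2), Gata3 (35.6 ± 8.02) and Esr1 (3.20 ± 0.644).

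**Figure D4:**
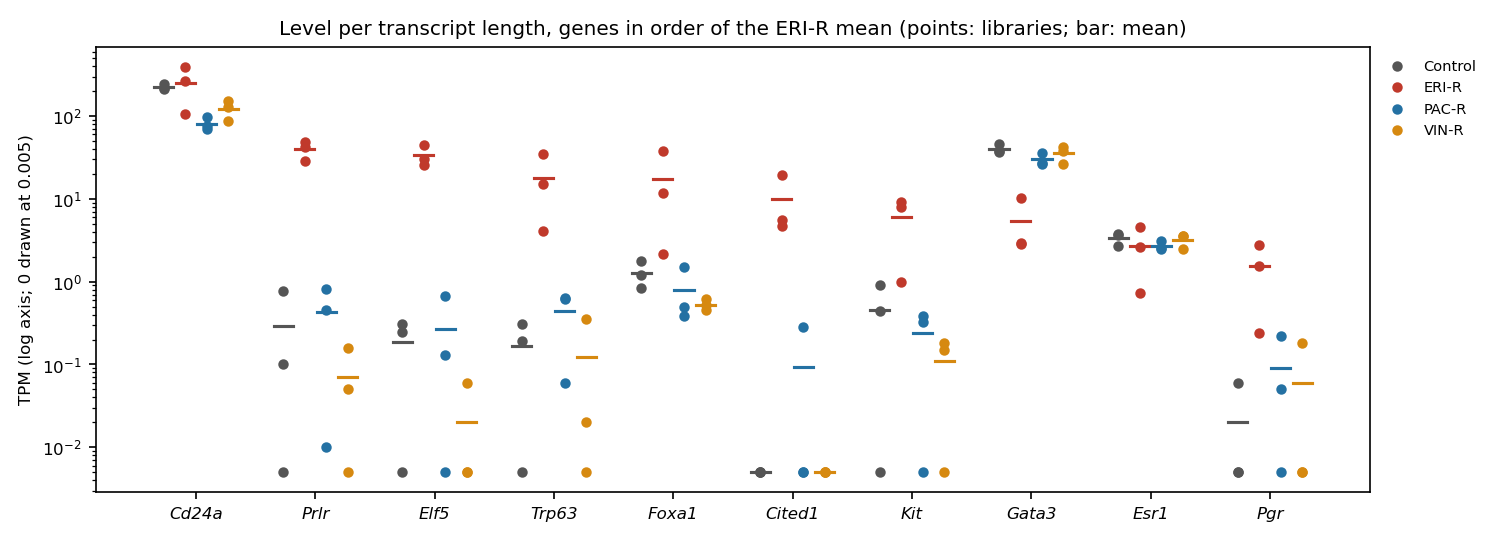
Level of each gene per transcript length, in TPM on a log axis with 0 drawn at 0.005, ordered by the ERI-R mean. Points are libraries and bars are means (n = 3). Cd24a is the most abundant gene in each group, and Gata3 averages 40.2 TPM in Control and 5.39 TPM in ERI-R.

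Genes that share a lineage or pathway with the 10 were counted in ERI-R against Control, leaving the 10 themselves out. The counts of each list stand beside shares of 9.51% higher and 9.69% lower over all genes tested. Some listed genes could be tested only because they were high in ERI-R. Outside ERI-R, Krt17 reached at most 0.586 CPM, Fgfr2 0.421 CPM and Wnt4 0.419 CPM, under the filter's 0.839 CPM. The lists were also chosen with earlier results of these data known. Their counts and medians therefore describe the listed genes and support nothing further. Of 15 tested basal genes, 6 were higher and 3 lower (median log2 fold change 0.18, against -0.00 over all genes). The basal keratins Krt14 and Krt17 rose by 7.29 and 7.03, while the neurotrophin receptor Ngfr and vimentin (Vim) were lower. Ngfr had 2 counts over the ERI-R libraries against 142 in Control, a CPM ratio of 68.3 (95% counting interval 18.6 to 569), and Vim had a log2 fold change of -4.23. Among 18 tested relatives and targets of p63, 12 were higher and 2 lower, with a median of 3.58, and the count of higher genes was 10 to 12 with any 1 library left out. The keratinocyte growth factor receptor Fgfr2 rose by 7.27, from 0.140 ± 0.242 CPM in Control to 22.7 ± 13.01 CPM in ERI-R (SD, n = 3), and the cytolinker Dst had -2.59. Cdh3, Itgb4, Jag2, Krt5, Krt14 and Ngfr stand in both lists, so the counts of these lists share genes. The Fgfr2 counts of Control all came from Control 2. Without Control 2, Krt14 had 8.29 and Krt17 8.50. Without ERI-R 3, Krt14 had 6.30, Krt17 5.76 and Vim -3.56, and without ERI-R 1 Vim had -4.87. In the 8 libraries with leukocyte transcripts Krt14 had 6.04, Krt17 5.12, Ngfr -5.25, Vim -3.57 and Dst -2.00.

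Of 15 luminal progenitor genes tested, 7 were higher and 2 lower (median 1.46). The count of higher genes was 4 without PAC-R 1, 3 without Control 1 or PAC-R 2, and 2 without Control 3, and that of lower genes was 1 without ERI-R 1, ERI-R 2 or any 1 Control library. Ehf, an ETS factor related to Elf5, had a log2 fold change of 6.33 and was not called without Control 1, Control 3, ERI-R 1, ERI-R 2, ERI-R 3, PAC-R 1, PAC-R 2 or VIN-R 1 (5.84 to 6.56). The GABA receptor subunit Gabrp had 6.03 and was not called without Control 1, Control 3, ERI-R 2 or PAC-R 2 (5.18 to 6.02). The collagen-binding integrin chain Itga2 had -4.55, and the retinaldehyde dehydrogenase Aldh1a3 had -2.15 but was not called without ERI-R 1, ERI-R 2 or any 1 Control library (-2.23 to -1.90). Of 12 mature luminal genes tested, 2 were higher and 3 lower (median -0.77), beside 9.51% and 9.69% of all genes tested. Wnt4, a mediator of progesterone action, rose by 5.91, and Myb had 3.85 but was not called without Control 1 (3.78) or Control 3 (3.49). The estrogen target Greb1 had -3.21 but was not called without Control 3 (-2.95). Without Control 2, Ehf had 8.80, Gabrp 8.51 and Myb 4.58. Without ERI-R 3, Wnt4 had 4.80 and Itga2 -3.88, and without ERI-R 1 Itga2 had -5.26.

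Genes around the receptors are given beside the shares of all genes tested, 9.51% called higher and 9.69% lower. Of 15 steroid receptors and coregulators tested, 1 was higher and 2 lower (median 0.18): the mineralocorticoid receptor Nr3c2 rose by 5.25, and the chaperone Fkbp5 had -2.18. The count of higher genes was 2 without ERI-R 3, PAC-R 3 or VIN-R 2. Of 11 prolactin signalling and milk genes tested, 1 was higher and 3 lower (median -0.68). Cish, an inhibitor induced by STAT5, had 1.74 but lost its call when any 1 Control library was left out (1.74 to 1.75). Without PAC-R 1 or PAC-R 3 the count of higher genes was 2. Leaving out ERI-R 1 gave Nr3c2 4.60, and leaving out ERI-R 3 gave 5.91. The growth hormone receptor Ghr had -3.65 and the casein gene Csn3 -2.16. Stat5a, which carries the prolactin signal, went from 13.1 ± 3.23 CPM in Control to 9.84 ± 0.628 CPM in ERI-R (SD, n = 3) and was not called, with a log2 fold change of -0.41. The milk genes Csn2, Wap and Lalba had 0 counts in all 12 libraries, ERI-R with its 7407 Prlr counts included.

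Of 11 genes of KIT signalling, 1 was higher and 2 lower (median -0.69). The kinase subunit Pik3r1 had 1.34 but was not called without ERI-R 1, ERI-R 2 or any 1 Control library (1.07 to 1.38), and the ETS factor Etv1 (-3.24) and the adaptor Dok1 (-2.92) were lower. Kitl, the KIT ligand, had a log2 fold change of -0.13 and was not called: Control had 67.3 ± 25.02 CPM and ERI-R 61.4 ± 48.2 CPM (SD, n = 3). Of 21 relatives of the GATA, forkhead, ETS and CITED factors, 4 were higher and 6 lower (median -0.42). The count of higher genes was 2 without Control 1 and 1 without Control 3. Ehf was also among the higher genes of this list. Cited4 rose by 8.55, at 20.4, 39.1 and 325 CPM in ERI-R 1 to 3, and like Cited1 it was highest in ERI-R 3. Gata2 and Foxa2 had -5.38 and -5.33 and were named as the largest falls of the list. Other relatives, picked out after their values were seen, went either way. Gata6 (-5.25) and Zfpm2 (-3.74) were also called lower, the forkhead gene Foxq1 rose by 2.67, and Foxc1 (0.70) and Gata4 (0.11) were not called. Without ERI-R 1, Gata2 had -6.01, Foxa2 -6.47 and Etv1 -4.07. Without ERI-R 3 they had -4.74, -4.74 and -2.62, and Cited4 had 6.58. Cited4 had 10.4 and Ehf 8.80 without Control 2. In PAC-R and VIN-R against Control, 0 genes of these lists were called.

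The named genes had the following values in the other lines. Krt14 stood at 2.82 ± 2.54 CPM in Control, 2.37 ± 1.85 CPM in PAC-R and 0.454 ± 0.715 CPM in VIN-R, against 441 ± 422 CPM in ERI-R (SD, n = 3). Ehf stood at 3.14 ± 4.50 CPM in Control, 3.59 ± 3.33 CPM in PAC-R and 0.454 ± 0.715 CPM in VIN-R. The Ehf counts outside ERI-R were 0 in Control 1, PAC-R 3 and VIN-R 3 and between 1 and 99 in the libraries with leukocyte transcripts.

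The genes whose levels followed each member most closely over the 12 libraries were ranked by Pearson's r of log2 CPM among 12050 genes. These values describe libraries that share groups, depth and leukocyte content. For the 8 genes called against Control, the rank order largely repeats the gap between ERI-R and the rest. Esr1 and Cd24a had no such gap, as their ERI-R and Control libraries overlapped. For Elf5 the 3 closest were Mb (0.992), Sox11 (0.991) and Cdkn2a (0.989), and for Prlr they were Ehf (0.990), Slc15a2 (0.990) and Tmem184a (0.989). For Trp63 they were Fmo2 (0.983), Ntrk2 (0.982) and Gprc5c (0.980), for Kit Ubl3 (0.987), Sntb1 (0.980) and Grhl1 (0.978), and for Pgr Cyth1 (0.980), Sorl1 (0.974) and Gab1 (0.971). Foxa1 was closest to Ppp4r4 (0.984), Tbc1d30 (0.971) and Zfp68 (0.969), and Cited1 to Shisa8 (0.992), D11Wsu47e (0.991) and Mxd4 (0.988). Gata3 was closest to Sh3gl3 (0.990), Paqr7 (0.987) and Hsd3b7 (0.986), and Esr1 to Arid1b (0.966), C2cd3 (0.957) and Pogz (0.951). Cd24a had the weakest such neighbours, Jag2 (0.885), Plekha7 (0.883) and Palmd (0.882).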

How the data were processed

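Poly(A) libraries were prepared from 200 ng of RNA and sequenced paired-end at 76 bases, per the labels' protocols. The submitters' processing notes name bcl2fastq 2.20.0.422, cutadapt 2.4, STAR 2.7.2b, RSEM 1.3.2 and GRCm38. No annotation release or strand setting is named in the sources used here. The authors deposited expected counts and TPM per gene for each library, per the file headers. They were rounded to whole numbers, and 15.3% of the nonzero values changed. Symbols and coordinates came from GENCODE M21 (GRCm38). The genes and lists were chosen with earlier results of these data known. The genes named from each list are up to 2 rises and 2 falls called in ERI-R against Control, with the largest log2 fold change and a mean of 1 CPM or more where higher, and the closest genes are the 3 with the highest correlation.

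Genes were filtered with edgeR 4.0.16's filterByExpr, scaled by TMM and fitted over all 12 libraries with a mean per group (robust quasi-likelihood, R 4.3.3). The 6 contrasts were each adjusted over 14226 genes. The SE is the log2 fold change divided by the root of the F statistic. Counting intervals and floors cover counting error only. Alternatives were DESeq2 1.42.0, other scaling and filters, only the groups compared, a replicate block, the leukocyte score, the 8 libraries with leukocyte transcripts, and leaving out each library. Those for named genes of the lists, and the Cited1 bounds with an ERI-R library left out, were added after seeing the data. Some genes that the naming rule selects are not reported here.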

Additional observations from a re-analysis of the deposited data

How the results depend on the processing

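Over the alternatives, 815 of the fold changes of the 10 genes kept direction and side of the threshold, 36 lost a call, 13 gained one and 15 changed sign. DESeq2 gives Cited1 no adjusted p, so it is left out there. The number of genes called in ERI-R against Control, PAC-R and VIN-R was 2732, 2667 and 2744. It was 1744, 1254 and 1493 with only the groups compared and 4498, 4132 and 4286 with the leukocyte score. The score called 3 genes in PAC-R and 8 in VIN-R against Control, and DESeq2 called 22 and 34, and 3 in VIN-R against PAC-R. With 1 library left out the ranges were 1866 to 2892, 1854 to 2922 and 2040 to 2903, and 0 to 2 and 0 to 6 for PAC-R and VIN-R against Control. Both upper values came without ERI-R 3. Of the 10 genes, 4 to 8 were then called against Control (4 without Control 3), 4 to 8 against PAC-R (4 without PAC-R 1 or PAC-R 2 and 5 without PAC-R 3) and 6 to 9 against VIN-R. Where a group was left with 2 libraries, its spread came from all groups.

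All sign changes were in uncalled differences near 0. With libraries left out, Cd24a in ERI-R against Control lay between -0.0168 and 0.50, Esr1 between -0.81 and 0.00478, Gata3 in PAC-R against Control between -0.38 and 0.00582, and Foxa1 in VIN-R against PAC-R between -0.82 and 0.19. In VIN-R against Control, Gata3 lay between -0.14 and 0.21 and Esr1 between -0.0695 and 0.11, and scaling by total counts alone gave -0.0111 and -0.0363. Esr1 in ERI-R against PAC-R lay between -0.54 and 0.28, with 0.0335 by total counts and 0.20 in the 8 libraries with leukocyte transcripts. Scaling by total counts moved the median of all genes by 0.13 against PAC-R and 0.12 against VIN-R. The cause was not tested.

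The labels number replicates 1 to 3 in each group, without saying that a number marks a shared culture or batch. Of 18 same-numbered pairs, 11 had deviations correlated above 0.1 (range -0.86 to 0.92), as had 18 of 36 differently numbered pairs (range -0.91 to 0.92). Of 12 libraries, 5 correlated best with one of their own number. With the replicate number as a block, 2666, 2604 and 2639 genes and 8, 8 and 8 of the 10 were called in ERI-R against Control, PAC-R and VIN-R. The block gave Prlr 7.99, 7.23 and 9.66 in these comparisons, added Pgr against VIN-R (5.01) and gave Gata3 -0.0394 in VIN-R against Control. At this depth, differences among Control, PAC-R and VIN-R in genes at 3 counts or fewer a library were not detectable.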
